A study of Mus musculus with 4 samples.

Results

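Carriers of amino acids, glucose and lactate were followed across 4 arrays of mouse cells described as ILC3s. ILC3s are the innate lymphoid cells that make IL-22 and carry no antigen receptor of their own. The array labelled Nr4a1 knockout was low in most ILC3 markers and high in T cell markers, as given below. The genes were taken by symbol, as every gene of the SLC1A, SLC2A, SLC3A, SLC7A, SLC16A, SLC36A, SLC38A and SLC43A families with a row in the deposited table. This gave 68 of the 19504 named genes, each with a single row. One of them, Slc7a6os, matches by its symbol but is named for its place beside Slc7a6 and is not a carrier of these families, so 67 carriers remained. The cells were sorted as Lin-negative, CD90-high and CD45-low, and 1 array was run for each of circZbtb20-/-, circZbtb20+/+, Nr4a1-/- and Nr4a1+/+ mice. circZbtb20 is a circular RNA made from exons of Zbtb20, and Nr4a1 is an orphan nuclear receptor. The labels state neither strain, age nor tissue, nor how many animals went into an array, nor how each deletion was made.

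These families bring fuel and building blocks into lymphocytes. GLUT proteins (SLC2) carry hexoses down their gradient, and monocarboxylate transporters (SLC16) move lactate and pyruvate together with a proton. Many SLC7 proteins reach the membrane only as a light chain joined to a heavy chain, Slc3a2 (CD98) or Slc3a1, and exchange 1 amino acid for another. Some SLC1 and SLC38 proteins use the sodium gradient to bring in neutral amino acids such as glutamine, which the exchangers then trade for leucine. SLC36 proteins and some SLC38 proteins work at the lysosome, where amino acid supply is read out to the growth kinase mTORC1. Activated lymphocytes are known to induce several of these carriers.

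Each genotype had 1 array, so no value below has a replicate error, the number of arrays limits the precision, and the differences rest on no test unless one is named. Values are on a log2 scale. Differences are knockout minus its own wild type, and a gene counts as higher or lower when it differed by at least 1, or 2-fold, with the higher value at or above the median of its array. The array medians ran from 4.34 to 4.51. No member was at the ceiling of the table, 19.93. Levels are compared between arrays for 1 gene and not between genes, because each gene has its own probes.

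Some facts of the samples touch every result. Nr4a1 itself had 11.63 in the Nr4a1 knockout and 18.11 in its wild type. The 11.63 was still above the median of that array, 4.34. In the circZbtb20 knockout Nr4a1 had 15.98, and in its wild type 19.93, the ceiling, so that difference is a lower bound in size. circZbtb20 has no row of its own. The array labelled Nr4a1 knockout did not carry most ILC3 markers at the level of the other arrays. Of 10 measured ILC3 markers 8 were lower and 1 was higher there. The higher one was Thy1, with a difference of 3.64. Il22 was at the ceiling, 19.93, in the Nr4a1 knockout and in its wild type, so any difference above the ceiling could not be seen. The summed log2 level of the 10 was 81.3 in the Nr4a1 knockout and 144.1 in its wild type. Ncr1 and Ccr6 were below the array median in the knockout. T cell markers went the other way, with 13 of 14 measured genes higher and a summed level of 218.3 in the Nr4a1 knockout and 91.4 in its wild type. All 7 measured markers of immature thymocytes were higher, with sums of 89.7 in the Nr4a1 knockout and 44.8 in its wild type. For circZbtb20 knockout cells 5 ILC3 markers were higher and 4 lower, summing to 147.8 in that knockout and 142.6 in its wild type, and 4 T cell markers were higher and 3 lower, summing to 86.0 in that knockout and 81.5 in its wild type. Of 10 measured pancreatic acinar genes 9 were lower in the circZbtb20 knockout, at sums of 49.3 in that knockout and 113.7 in its wild type, and 10 were lower in the Nr4a1 knockout, at 42.2 in that knockout and 87.5 in its wild type. Of 7 epithelial markers 7 were lower in the Nr4a1 knockout, with sums of 30.7 in that knockout and 50.4 in its wild type. On the circZbtb20 knockout array 3 of them were higher and 1 lower, with sums of 40.2 in that knockout and 36.8 in its wild type. Of 8 measured macrophage markers 5 were lower in the Nr4a1 knockout, with sums of 42.2 in that knockout and 56.4 in its wild type, and 3 were lower in the circZbtb20 knockout, with sums of 40.1 in that knockout and 47.9 in its wild type. Of 6 measured B cell and plasma cell markers, 2 were lower in the Nr4a1 knockout. The 6 summed to 29.5 in that knockout and 42.8 in its wild type. On the circZbtb20 knockout array 1 was lower, with sums of 33.8 in that knockout and 39.3 in its wild type. Jchain was the marker of this list that differed most in both comparisons. It was at 9.94 in the Nr4a1 knockout and 19.08 in its wild type, a difference of -9.14. The circZbtb20 pair had Jchain at 11.29 in the knockout and 16.12 in the wild type, a difference of -4.83. Slc3a2, given below, had the 4 arrays in the same order. Against the other wild type, 0 epithelial markers were higher and 5 were lower in the circZbtb20 knockout, 6 macrophage markers were lower there, and its T cell markers were 2 higher and 6 lower. Likewise 4 epithelial and 3 macrophage markers were lower in the Nr4a1 knockout. The part of these other cell types in the transporter differences was not tested. In such bulk samples, fewer cells of a type and less RNA per cell cannot be told apart.

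Of the 68 genes, 32 were below the median of all 4 arrays, at levels from 2.50 to 4.49, and 19 were at or above the median on all 4. Those 32 include Slc3a1, the other heavy chain, and Slc1a4, a neutral amino acid carrier, which was at 3.55 in the circZbtb20 knockout and 3.41 in its wild type and at 3.08 in the Nr4a1 knockout and 3.04 in its wild type. The differences of the 32 were between -0.87 and 0.92 in the circZbtb20 comparison and between -0.90 and 0.64 in the Nr4a1 comparison. The other 17 were at or above the median on 1 to 3 arrays. In the circZbtb20 comparison 33 of the 68 genes passed the filter on low values, and 32 did in the Nr4a1 comparison.

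In the circZbtb20 knockout 9 members were higher and 9 lower, 26.5% of the 68, while the same rule called 26.6% of all genes. In the Nr4a1 knockout 12 were higher and 9 lower, 30.9% of the 68, while it called 30.3% of all genes. The number of transporters past the rule was therefore close to that of genes in general in both comparisons. By direction the rule called 15.6% of all genes higher and 11.1% lower in the circZbtb20 knockout, and 18.3% higher and 11.9% lower in the Nr4a1 knockout. Required to pass in the same direction against both wild types, 7 members were higher and 8 were lower in the circZbtb20 knockout, where 20.1% of all genes passed, 12.2% higher and 7.91% lower. By the same stricter rule 10 were higher and 7 lower in the Nr4a1 knockout, where 24.2% of all genes passed, 15.6% higher and 8.63% lower. Between the wild types, Nr4a1 minus circZbtb20, 2 members were higher and 6 lower, 11.8%, where 8.36% of all genes passed, 4.65% higher and 3.71% lower. The median difference of the 68 genes was 0.12 in the circZbtb20 knockout, where that of all genes was 0.04. In the Nr4a1 knockout it was 0.015, where that of all genes was 0.00. With cyclic loess normalization the circZbtb20 split of members became 5 higher and 10 lower. Among all genes called in the circZbtb20 comparison the share that was higher also moved, to 49.7%, against 58.5% in the deposited values. In the Nr4a1 comparison that share of all genes called moved to 49.5%, against 60.6% in the deposited values.

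**Figure D1:**
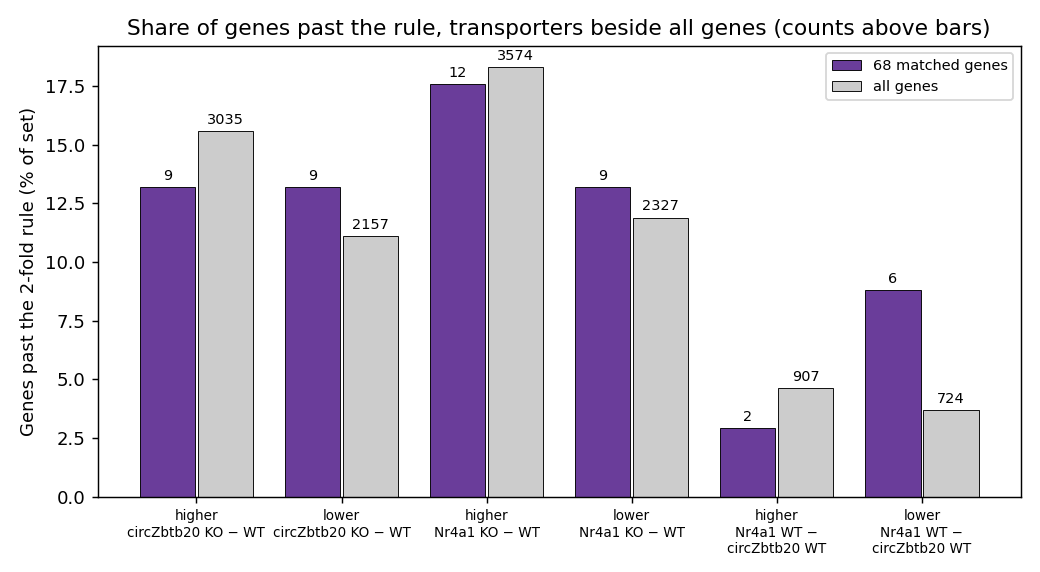
Share of genes past the 2-fold rule (vertical axis, percent) among the 68 matched genes (purple) and all genes (grey), higher and lower, for each knockout against its wild type and for the wild types against each other. Counts stand above the bars, and the members sit near all genes in both knockout comparisons, at 9 and 9 genes for circZbtb20 and 12 and 9 for Nr4a1.

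Promoters show where factors known to control these genes could bind. RefSeq promoters of GRCm38.p6, each 300 bases long from 250 before the start site to 50 after it, were found for 51 of the 68 genes, as 62 windows. They were searched on both strands for the core of the site of ATF4, the factor of the amino acid starvation response (TGATGNAA), and for the E-box bound by MYC and by MondoA (the product of Mlxip) with its partner MLX (CACGTG). The 4 members past the rule that held a match are printed 5′ to 3′ on the strand of the gene, with matches in capitals. They are Slc7a11 (ATF4 core on both strands, chr3:50443564-50443863, minus strand), Slc7a7 (ATF4 core, with a match at each of 2 places, chr14:54417895-54418194, minus strand), Slc16a1 (E-box, chr3:104638414-104638713, plus strand) and Slc43a1 (E-box, chr2:84840073-84840372, plus strand).
Slc7a11: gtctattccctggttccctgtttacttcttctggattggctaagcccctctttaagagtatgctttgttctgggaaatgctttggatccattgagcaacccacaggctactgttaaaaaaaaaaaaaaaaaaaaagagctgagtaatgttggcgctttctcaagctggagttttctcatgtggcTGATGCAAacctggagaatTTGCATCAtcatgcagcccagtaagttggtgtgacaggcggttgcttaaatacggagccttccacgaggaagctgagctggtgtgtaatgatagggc
Slc7a7: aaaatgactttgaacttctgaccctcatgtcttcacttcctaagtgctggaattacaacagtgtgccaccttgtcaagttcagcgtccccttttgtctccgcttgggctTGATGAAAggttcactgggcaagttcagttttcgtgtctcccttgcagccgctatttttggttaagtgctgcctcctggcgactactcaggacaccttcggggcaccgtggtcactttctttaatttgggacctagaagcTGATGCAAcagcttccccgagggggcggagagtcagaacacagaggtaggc
Slc16a1: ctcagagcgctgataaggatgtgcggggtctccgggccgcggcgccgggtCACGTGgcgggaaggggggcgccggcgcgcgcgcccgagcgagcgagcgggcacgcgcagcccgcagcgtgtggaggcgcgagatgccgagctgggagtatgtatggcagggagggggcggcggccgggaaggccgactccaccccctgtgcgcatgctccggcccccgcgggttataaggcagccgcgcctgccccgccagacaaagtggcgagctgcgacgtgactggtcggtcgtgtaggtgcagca
Slc43a1: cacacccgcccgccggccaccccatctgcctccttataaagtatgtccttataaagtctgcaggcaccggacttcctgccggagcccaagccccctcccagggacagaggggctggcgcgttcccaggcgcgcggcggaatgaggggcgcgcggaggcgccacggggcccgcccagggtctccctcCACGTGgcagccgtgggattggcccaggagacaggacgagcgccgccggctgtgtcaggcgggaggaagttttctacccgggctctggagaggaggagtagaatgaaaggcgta
The ATF4 core was in 4 of the 62 windows, 6.45%, and in 3.97% of all promoters of the table. A second, overlapping Slc7a7 window holds 1 of the same matches. The E-box was in 9 windows, 14.5%, and in 7.15% of all promoters. A match of letters is a description and was not tied to binding by any measurement here.

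**Figure D2:**
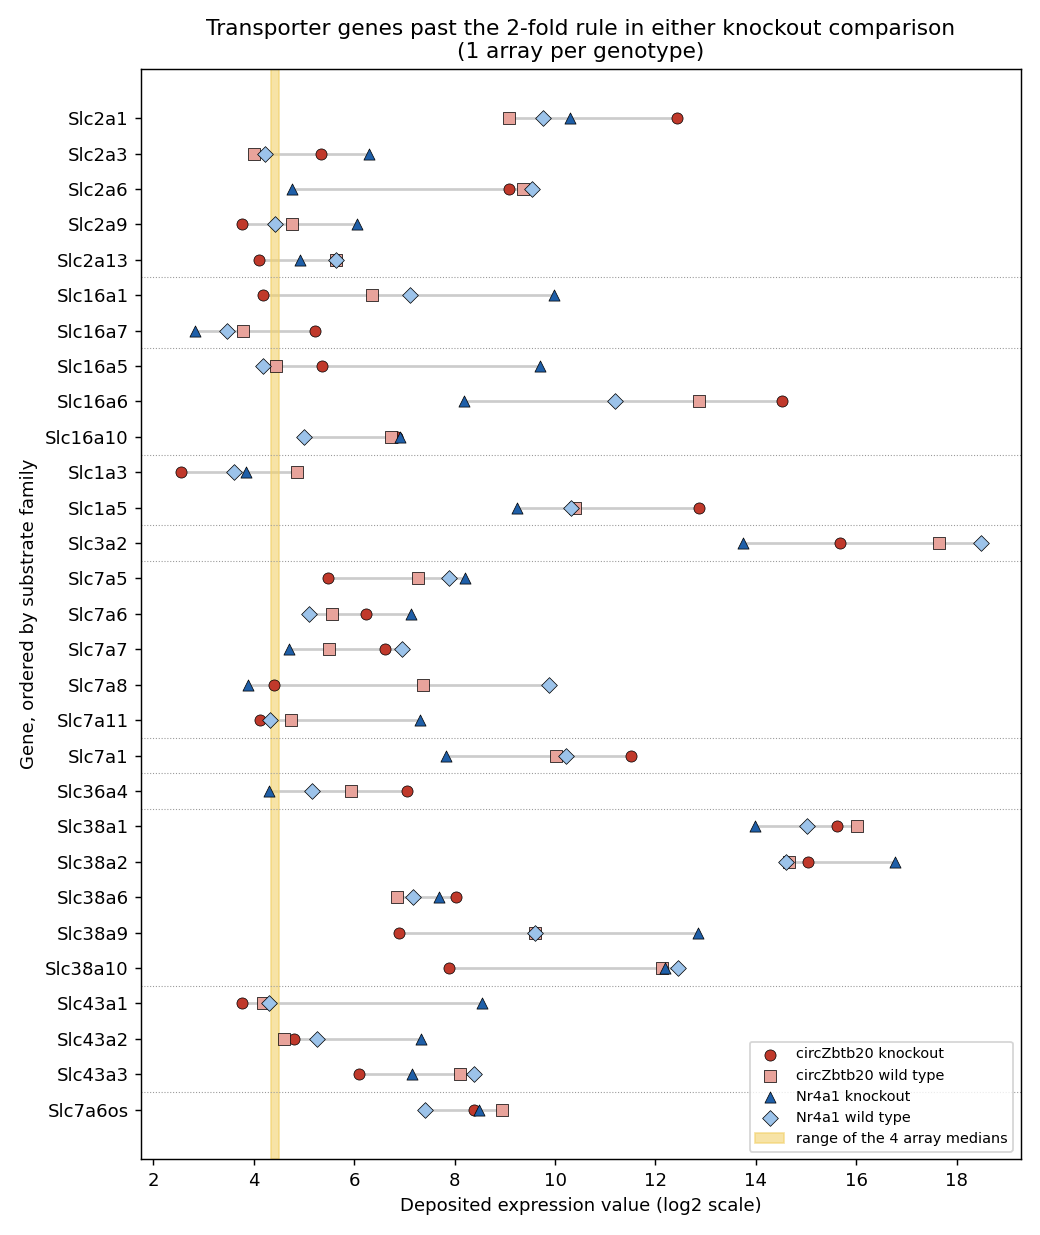
Deposited values (horizontal axis, log2 scale) of the 29 genes past the 2-fold rule in either knockout comparison, 1 point per array, ordered by family with dotted lines between families. The yellow band is the range of the 4 array medians. Slc3a2 and Slc7a8 were lower in each knockout than in both wild types, while Slc38a9 and Slc16a1 had the circZbtb20 knockout lowest and the Nr4a1 knockout highest.

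The amino acid exchangers that pair with the CD98 heavy chain are described first. Slc3a2, the heavy chain itself, was at 15.68 in the circZbtb20 knockout and 17.64 in its wild type, and at 13.74 in the Nr4a1 knockout and 18.47 in its wild type. Both knockouts were below both wild types, by -1.96 and -4.73 against their own. Slc7a8, the light chain LAT2 that carries neutral amino acids, was at 4.40 in the circZbtb20 knockout and 7.38 in its wild type, and at 3.89 in the Nr4a1 knockout and 9.88 in its wild type. It was thus near or under the array median in the knockouts, lower with a difference of -2.98 and -5.99. The wild types themselves differed by 2.50 for Slc7a8, the greatest such difference among the 68 genes, and the Nr4a1 knockout differed by -3.49 from the other wild type.

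No other light chain was lower by the rule in both comparisons. Slc7a5, the leucine carrier LAT1 of activated lymphocytes, was at 5.49 in the circZbtb20 knockout and 7.28 in its wild type, lower with a difference of -1.79. It was at 8.21 in the Nr4a1 knockout and 7.90 in its wild type, and the difference of 0.31 did not reach the rule. Slc7a11, the cystine and glutamate exchanger xCT whose promoter is printed above, was at 7.32 in the Nr4a1 knockout and 4.32 in its wild type, higher by 3.0. On the circZbtb20 pair it was at 4.13 in the knockout and 4.75 in the wild type, so the Nr4a1 knockout was the 1 array well above the median. Slc7a6, the exchanger of cationic for neutral amino acids y+LAT2, was at 7.13 in the Nr4a1 knockout and 5.10 in its wild type, higher by 2.03, and at 6.23 in the circZbtb20 knockout and 5.57 in its wild type. Its relative Slc7a7, y+LAT1, went the opposite way, at 4.70 in the Nr4a1 knockout and 6.96 in its wild type, lower with a difference of -2.26, or -0.81 against the other wild type. In the circZbtb20 knockout Slc7a7 was at 6.61, against 5.51 in its wild type, higher by 1.10 but at -0.35 against the other wild type. The y+LAT genes thus differed in opposite directions in the Nr4a1 knockout. Of 10 measured light chains, 1 was higher and 2 lower in the circZbtb20 knockout, where 26.6% of all genes were called. In the Nr4a1 knockout 2 were higher and 2 lower, where 30.3% of all genes were called.

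Slc43a1 and Slc43a2 move large neutral amino acids without a heavy chain. Slc43a1, LAT3, was at 8.55 in the Nr4a1 knockout and 4.30 in its wild type, higher by 4.25, while both arrays of the circZbtb20 pair were below their medians at 3.76 in the knockout and 4.18 in the wild type. Slc43a2, LAT4, was at 7.34 in the Nr4a1 knockout and 5.27 in its wild type, higher by 2.07, and at 4.80 in the circZbtb20 knockout and 4.60 in its wild type. Against its own wild type the Nr4a1 knockout thus had the heavy chain and LAT2 lower and LAT3 and LAT4 higher. Slc43a3, known in human cells as a purine nucleobase carrier, was lower in both comparisons. It was at 6.09 in the circZbtb20 knockout and 8.10 in its wild type, lower with a difference of -2.01, and at 7.16 in the Nr4a1 knockout and 8.38 in its wild type, lower with a difference of -1.22, which became -0.94 against the other wild type.

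**Figure D3:**
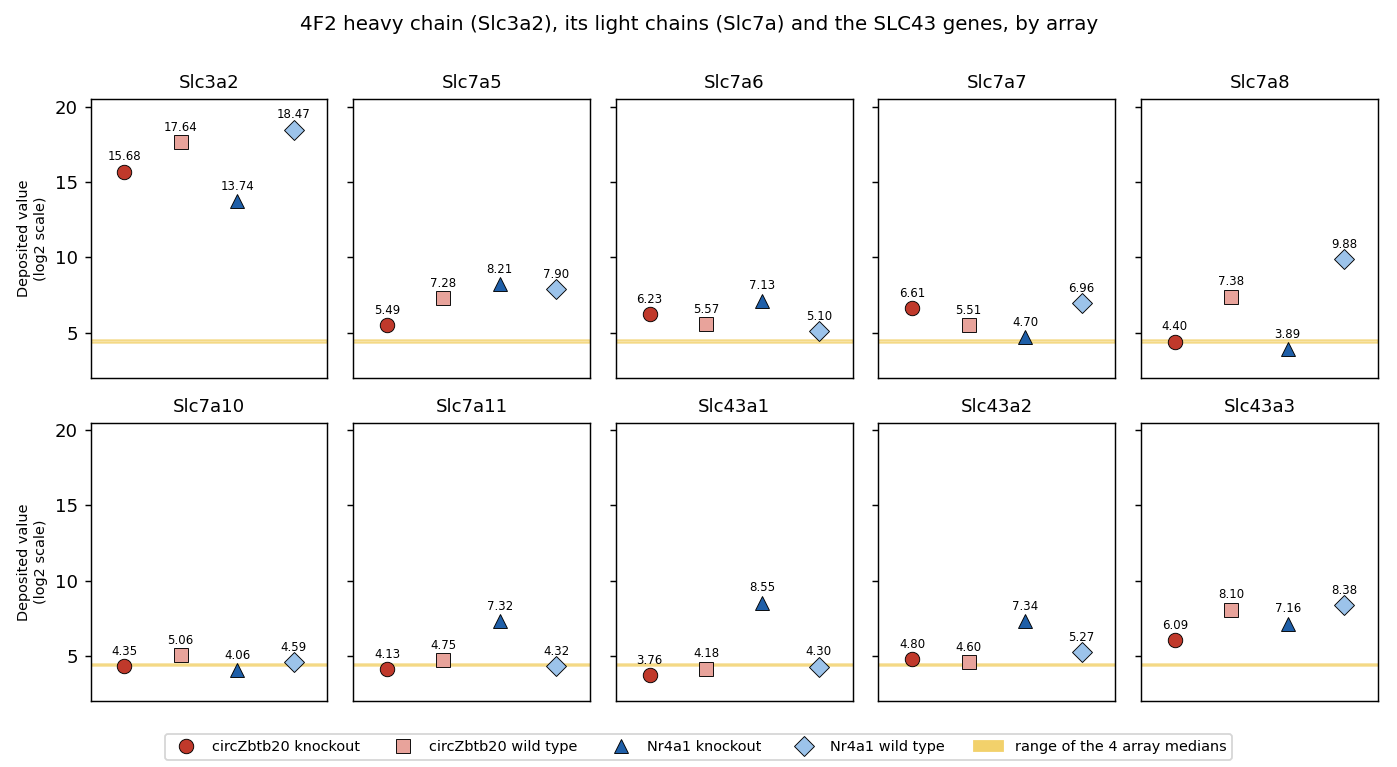
Deposited values (vertical axis, log2 scale) of the heavy chain Slc3a2, its light chains and the SLC43 genes, 1 point per array with its value above it and the range of the array medians in yellow. Slc3a2 and Slc7a8 are lowest in the Nr4a1 knockout, at 13.74 and 3.89, where Slc43a1 and Slc43a2 are highest, at 8.55 and 7.34.

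Carriers that supply glutamine and other neutral amino acids come next. Slc1a5, ASCT2, was at 12.86 in the circZbtb20 knockout and 10.40 in its wild type, higher by 2.46. It was at 9.25 in the Nr4a1 knockout and 10.32 in its wild type, lower with a difference of -1.07, or -0.90 with each array centred on its median. The wild types were 0.08 apart, and the knockouts lay on either side of them. Slc38a2, the carrier SNAT2 that cells induce when amino acids run short, was at 16.77 in the Nr4a1 knockout and 14.60 in its wild type, higher by 2.17, and at 15.04 in the circZbtb20 knockout and 14.65 in its wild type. Slc38a1, SNAT1, was at 13.98 in the Nr4a1 knockout and 15.01 in its wild type, lower with a difference of -1.03. That difference was close in size to the one between the wild types, -1.01, and was -0.86 after centring. In the circZbtb20 knockout Slc38a1 was at 15.62, against 16.02 in its wild type. Slc1a3, a glutamate and aspartate carrier, was at 2.56 in the circZbtb20 knockout and 4.86 in its wild type, lower with a difference of -2.30. It was below the median on the other 3 arrays, so it did not pass the filter against the other wild type.

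Arginine and lysine enter mainly through the cationic SLC7 carriers, of which only Slc7a1, CAT1, was above the median on any array. Slc7a1 was at 11.51 in the circZbtb20 knockout and 10.01 in its wild type, higher by 1.50, or 0.91 with cyclic loess and 0.92 with quantile normalization, both under the rule. It was at 7.83 in the Nr4a1 knockout and 10.21 in its wild type, lower with a difference of -2.38. The knockouts again lay on opposite sides of the wild types.

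The SLC36 family and the rest of the SLC38 family include carriers of the lysosome. Slc38a9, the lysosomal arginine sensor that signals to mTORC1, was at 6.89 in the circZbtb20 knockout and 9.61 in its wild type, lower with a difference of -2.72. It was at 12.84 in the Nr4a1 knockout and 9.60 in its wild type, higher by 3.24. The wild types were 0.01 apart, so this gene separated the 2 knockouts in opposite directions around nearly equal wild types. Slc38a10, a carrier of neutral amino acids in the mouse, was at 7.90 in the circZbtb20 knockout and 12.12 in its wild type, the lowest difference of the 68 genes there at -4.22. The other arrays were at 12.19 in the Nr4a1 knockout and 12.44 in its wild type. Slc36a4, a carrier of proline and tryptophan, was at 7.05 in the circZbtb20 knockout and 5.93 in its wild type, higher by 1.12, or 0.96 with cyclic loess. With quantile normalization it also lost that call. It was at 4.30 in the Nr4a1 knockout and 5.16 in its wild type. Slc38a6, of the same family as Slc38a9, was at 8.03 in the circZbtb20 knockout and 6.86 in its wild type, higher by 1.17, or 0.74 with cyclic loess and 0.85 against the other wild type. Slc38a6 lost that call with quantile normalization too. It was at 7.69 in the Nr4a1 knockout and 7.18 in its wild type.

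Of 26 measured genes of the amino acid sensing machinery, 9 were higher and 4 were lower in the circZbtb20 knockout, and 8 were higher and 3 lower in the Nr4a1 knockout. Their median difference was 0.28 in the circZbtb20 knockout and 0.51 in the Nr4a1 knockout, where those of all genes were 0.04 and 0.00. Of the 26 genes, 23 passed the filter on low values in the circZbtb20 comparison and 25 in the Nr4a1 comparison. The medians of all genes past that filter were 0.17 in the circZbtb20 comparison and 0.29 in the Nr4a1 comparison. The rule called 26.6% of all genes in the circZbtb20 comparison and 30.3% in the Nr4a1 comparison. Against the other wild type 6 of the 26 were higher and 6 were lower in the circZbtb20 knockout. With cyclic loess 6 were higher and 5 lower in the Nr4a1 knockout. Quantile normalization gave 10 higher and 5 lower in the circZbtb20 knockout and 8 higher and 3 lower in the Nr4a1 knockout. The balance of higher and lower genes thus depended on the setting. Rptor, the mTORC1 scaffold, was at 8.10 in the circZbtb20 knockout and 4.75 in its wild type, higher by 3.35, and at 5.60 in the Nr4a1 knockout and 5.29 in its wild type. Castor1, an arginine sensor of the cytosol, was at 6.58 in the circZbtb20 knockout and 4.86 in its wild type, a call that the 0.17 against the other wild type does not keep, and at 3.26 in the Nr4a1 knockout and 6.41 in its wild type. Depdc5, of the GATOR1 complex that restrains the Rag GTPases, was at 8.28 in the Nr4a1 knockout and 5.34 in its wild type, while Sesn1, a sestrin, was at 8.90 in the Nr4a1 knockout and 11.82 in its wild type. The genes of the list thus lay on both sides in each comparison.

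Glucose carriers differed by gene. Slc2a1, GLUT1, the main glucose carrier of activated lymphocytes, was at 12.43 in the circZbtb20 knockout and 9.09 in its wild type, higher by 3.34, the highest difference of the 68 genes there. It was at 10.30 in the Nr4a1 knockout and 9.76 in its wild type, and the difference of 0.54 did not reach the rule, while that of 1.21 against the other wild type did. Slc2a3, the high-affinity GLUT3, was higher in each knockout, at 5.35 in the circZbtb20 knockout and 4.01 in its wild type, and at 6.29 in the Nr4a1 knockout and 4.23 in its wild type. Both wild types were below their medians for Slc2a3. Slc2a6, GLUT6, known from mouse macrophages as a lysosomal protein, was at 4.76 in the Nr4a1 knockout and 9.54 in its wild type, lower with a difference of -4.78, and at 9.08 in the circZbtb20 knockout and 9.37 in its wild type. Slc2a9, a urate carrier, was at 6.05 in the Nr4a1 knockout and 4.43 in its wild type, higher by 1.62. Slc2a13, which carries myo-inositol, was at 4.11 in the circZbtb20 knockout and 5.64 in its wild type, lower with a difference of -1.53. The other 7 of 12 GLUT genes were below the median on all arrays.

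Lactate carriers follow. Slc16a1, MCT1, which carries lactate and pyruvate, was at 4.19 in the circZbtb20 knockout and 6.36 in its wild type, lower with a difference of -2.17. It was at 9.99 in the Nr4a1 knockout and 7.12 in its wild type, higher by 2.87. Slc16a3, MCT4, the lactate exporter of glycolytic cells, was near the medians on every array, between 4.23 and 4.89. Slc16a7, MCT2, was at 5.23 in the circZbtb20 knockout and 3.79 in its wild type, higher by 1.44, and at 2.84 in the Nr4a1 knockout and 3.48 in its wild type. Emb, embigin, a partner that brings such carriers to the membrane, was at 12.86 in the Nr4a1 knockout and 18.38 in its wild type, lower with a difference of -5.52, while in the circZbtb20 pair it was at 18.82 in the knockout and 18.78 in the wild type. Bsg, basigin, the partner of MCT1 and MCT4, was between 12.62 and 13.89. In the Nr4a1 knockout its difference of 0.97 lay just under the rule, and passed it at 1.14 with centred arrays and at 1.27 against the other wild type.

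**Figure D4:**
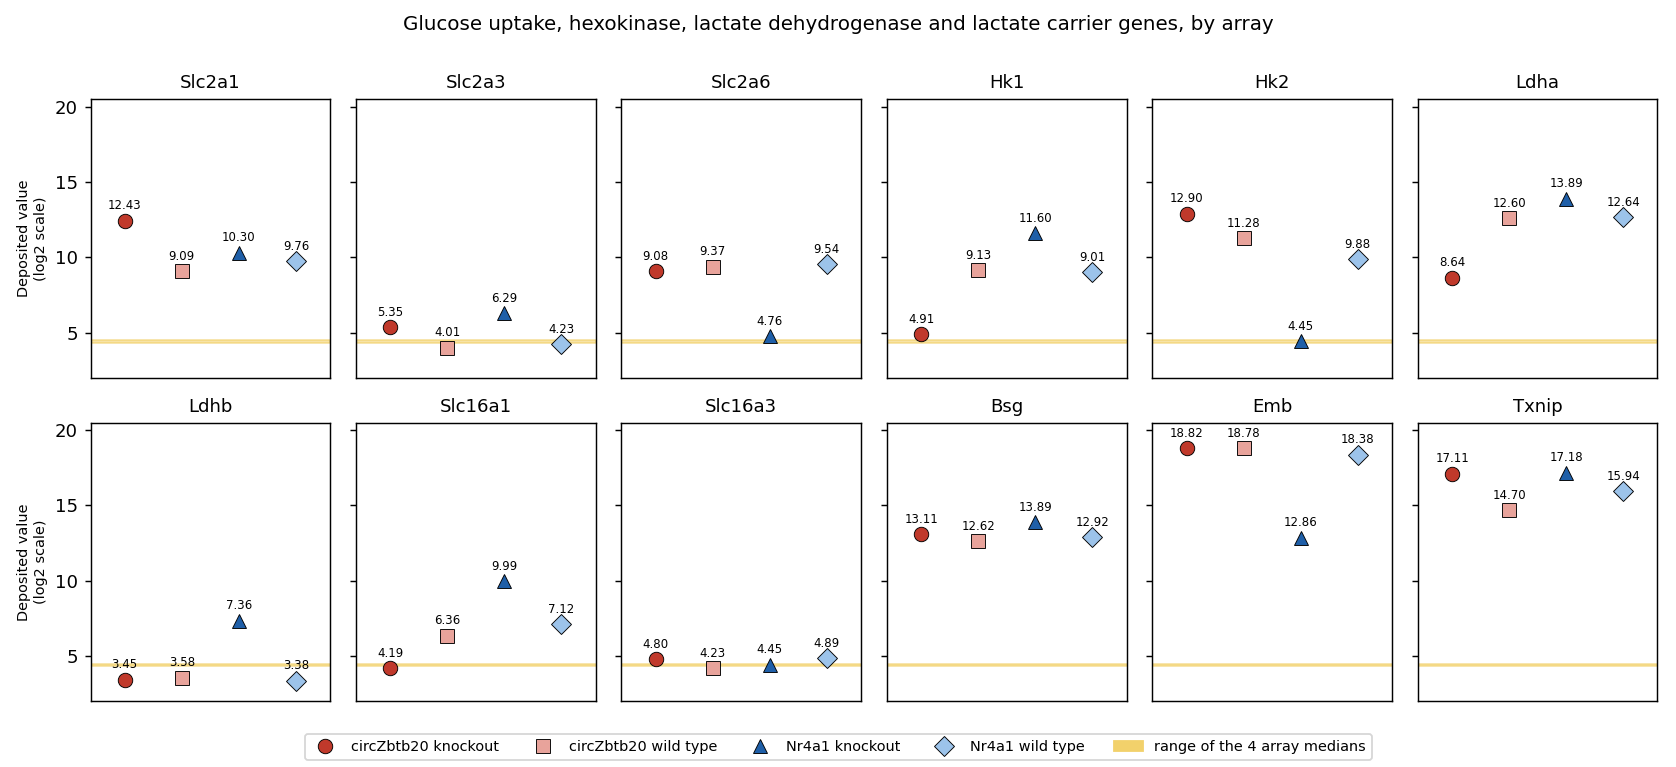
Deposited values (vertical axis, log2 scale) of glucose carriers, hexokinases, lactate dehydrogenases, lactate carriers and carrier partners, 1 point per array with its value above it and the range of the array medians in yellow. Slc2a1 and Hk2 are highest in the circZbtb20 knockout, at 12.43 and 12.90, and Slc16a1, Ldha, Ldhb and Hk1 are highest in the Nr4a1 knockout, at 9.99, 13.89, 7.36 and 11.60.

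Enzymes that use glucose or make lactate were measured beside the carriers. Of 11 measured genes of hexokinase, lactate and glutamine handling, 2 were higher and 2 were lower in the circZbtb20 knockout. In the Nr4a1 knockout 6 were higher and 2 lower. Among all genes 26.6% were past the rule in the circZbtb20 comparison and 30.3% in the Nr4a1 comparison. Hk2, an inducible hexokinase, was at 12.90 in the circZbtb20 knockout and 11.28 in its wild type, and at 4.45 in the Nr4a1 knockout and 9.88 in its wild type. Hk1 had the opposite signs, at 4.91 in the circZbtb20 knockout and 9.13 in its wild type, and at 11.60 in the Nr4a1 knockout and 9.01 in its wild type. Pdk1, a kinase that holds pyruvate back from the mitochondrion, was at 10.04 in the Nr4a1 knockout and 5.56 in its wild type, and Ldhb, a lactate dehydrogenase subunit, was at 7.36 in the Nr4a1 knockout and 3.38 in its wild type. Ldha, the subunit linked to making lactate, was at 8.64 in the circZbtb20 knockout and 12.60 in its wild type, and at 13.89 in the Nr4a1 knockout and 12.64 in its wild type. Ldha and Slc16a1 thus had the same signs, lower in the circZbtb20 knockout and higher in the Nr4a1 knockout, where Ldha was at 0.65 with cyclic loess and under the rule.

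Of the 11 genes for carrier partners and traffic, 5 were higher and 0 were lower in the circZbtb20 knockout, and 5 were higher and 4 lower in the Nr4a1 knockout. With quantile or cyclic loess normalization 2 were higher and 4 lower in the Nr4a1 knockout, and with centred arrays 7 were higher. The same rule called 26.6% of all genes in the circZbtb20 comparison and 30.3% in the Nr4a1 comparison. All 11 listed genes passed the filter on low values in both comparisons. Of the 19504 genes, 11129 passed it in the circZbtb20 comparison and 11225 in the Nr4a1 comparison. Arrdc4, an arrestin-like protein that draws GLUT1 from the membrane, was at 17.21 in the circZbtb20 knockout and 14.93 in its wild type, and at 4.10 in the Nr4a1 knockout and 15.44 in its wild type, lower with a difference of -11.34. Its relative Arrdc3 was at 12.29 in the circZbtb20 knockout and 11.22 in its wild type, and at 5.63 in the Nr4a1 knockout and 11.12 in its wild type. Both relatives were thus higher in the circZbtb20 knockout and lower in the Nr4a1 knockout, but the circZbtb20 difference of Arrdc3 was 0.60 with quantile and 0.52 with cyclic loess normalization, under the rule. Snx27, which with Vps35 of the retromer returns GLUT1 to the membrane, was at 10.61 in the Nr4a1 knockout and 5.02 in its wild type, higher by 5.59, and at 6.25 in the circZbtb20 knockout and 6.52 in its wild type.

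The remaining SLC16 genes carry other substrates. Slc16a6, MCT7, known in zebrafish as an exporter of ketone bodies, was at 14.52 in the circZbtb20 knockout and 12.87 in its wild type, higher by 1.65, and at 8.18 in the Nr4a1 knockout and 11.19 in its wild type, lower with a difference of -3.01. The wild types differed by -1.68 for this gene, a size near that of the circZbtb20 difference. Slc16a5, MCT6, was at 9.71 in the Nr4a1 knockout and 4.18 in its wild type, higher by 5.53, the highest difference of the 68 genes there. It was at 5.37 in the circZbtb20 knockout and 4.45 in its wild type. Slc16a10, the aromatic amino acid carrier TAT1, was at 6.91 in the Nr4a1 knockout and 5.0 in its wild type, higher by 1.91. The other wild type was at 6.74, against which the difference was only 0.17. Slc7a6os, at 8.48 in the Nr4a1 knockout and 7.42 in its wild type, was higher by 1.06, and at -0.47 against the other wild type.

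Of the 18 members past the rule in the circZbtb20 comparison and the 21 in the Nr4a1 comparison, 10 were past it in both. These comparisons share no array. Slc2a3 was higher in both, and Slc3a2, Slc7a8 and Slc43a3 were lower in both. The other 6 had opposite signs. Slc1a5, Slc7a1, Slc7a7 and Slc16a6 were higher in the circZbtb20 knockout and lower in the Nr4a1 knockout, and Slc16a1 and Slc38a9 the reverse. Among all genes 2807 were past the rule in both comparisons, 40.9% of them with opposite signs, while 6 of the 10 members had them. With 10 genes nothing was read from that share.

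**Figure D5:**
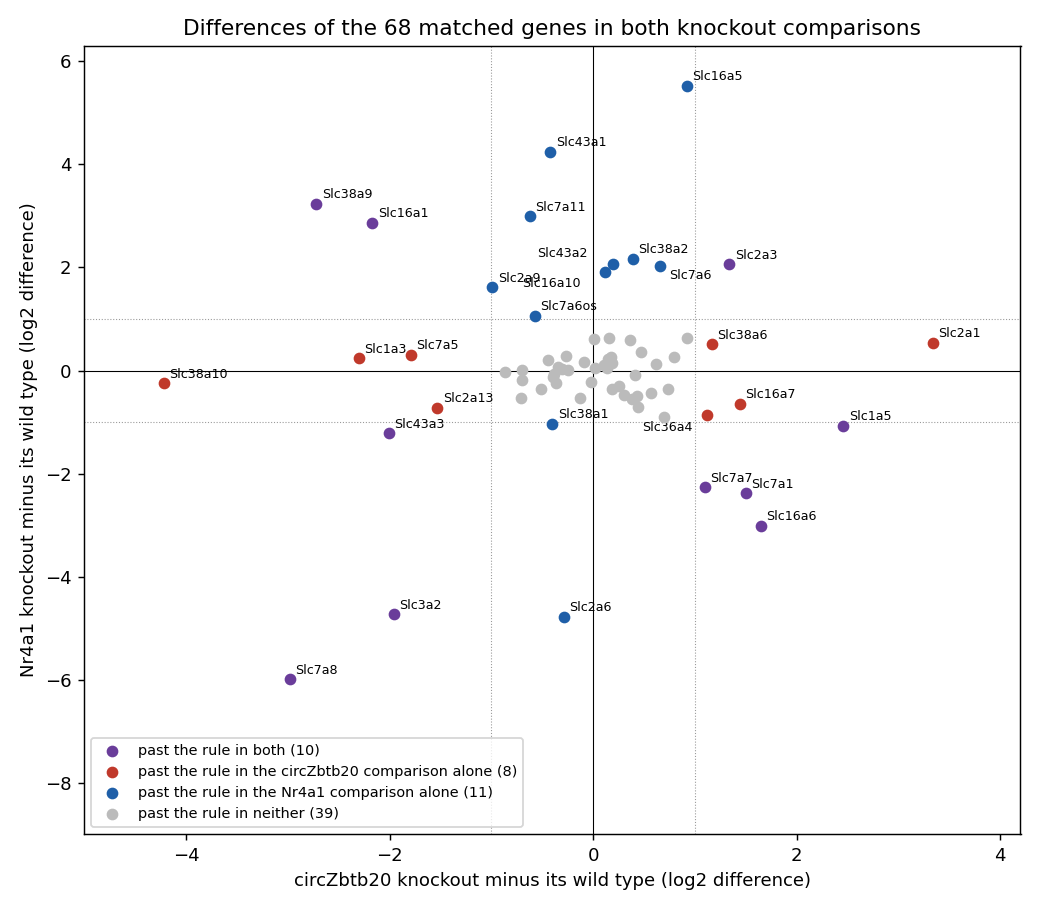
Log2 differences of the 68 matched genes in the circZbtb20 knockout (horizontal axis) and in the Nr4a1 knockout (vertical axis), each against its own wild type, with dotted lines at the 2-fold size. Of the 10 genes past the rule in both, 4 lie in quadrants of equal sign and 6 in quadrants of opposite sign.

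Regulators known to act on these genes were also measured. Of 8 such genes 1 was higher and 3 lower in the circZbtb20 knockout, and 1 was higher and 5 lower in the Nr4a1 knockout. Against the other wild type 5 were lower in the circZbtb20 knockout and 4 in the Nr4a1 knockout. Against the own wild type the rule called 26.6% of all genes in the circZbtb20 comparison and 30.3% in the Nr4a1 comparison. Myc, which induces many amino acid and glucose carriers, was at 11.13 in the circZbtb20 knockout and 13.76 in its wild type, and at 12.46 in the Nr4a1 knockout and 16.57 in its wild type. Epas1, of the hypoxia response, was at 3.46 in the Nr4a1 knockout and 13.99 in its wild type, lower with a difference of -10.53, and at 12.37 in the circZbtb20 knockout and 13.21 in its wild type, where it passed the rule against the other wild type, at -1.62. Mlxip, which encodes the glucose sensor MondoA, was at 5.74 in the circZbtb20 knockout and 12.25 in its wild type, and at 9.51 in the Nr4a1 knockout and 13.80 in its wild type. Myc and Mlxip were below both wild types in each knockout. Mlx, the partner of MondoA, was higher in the Nr4a1 knockout, at 10.35, against 7.23 in its wild type.

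Of 20 genes of ATF4 and the amino acid response, 5 were higher and 5 were lower in the circZbtb20 knockout, and 5 were higher and 9 lower in the Nr4a1 knockout, with medians of 0.025 and -0.63. The rule called 26.6% of all genes in the circZbtb20 comparison and 30.3% in the Nr4a1 comparison, with medians of all genes of 0.04 and 0.00. Of the 20 genes, 17 passed the filter on low values in the circZbtb20 comparison and 19 in the Nr4a1 comparison. The medians of all genes past that filter were 0.17 and 0.29. Atf4 was at 14.85 in the circZbtb20 knockout and 13.40 in its wild type, and at 11.14 in the Nr4a1 knockout and 13.92 in its wild type. Ppp1r15a, a stress-induced phosphatase subunit, was at 9.83 in the circZbtb20 knockout and 7.27 in its wild type, and at 3.87 in the Nr4a1 knockout and 7.78 in its wild type. Atf4 and Ppp1r15a thus had the same signs, with Atf4 in the circZbtb20 knockout under the rule, at 0.93, against the other wild type. Phgdh, the first enzyme of serine synthesis, was at 8.04 in the Nr4a1 knockout and 4.24 in its wild type. Nupr1, a stress-induced nuclear protein, was lower in each comparison, at 7.08 in the circZbtb20 knockout and 8.71 in its wild type and at 4.46 in the Nr4a1 knockout and 8.25 in its wild type. Psph, the last enzyme of that route, was at 6.97 in the circZbtb20 knockout and 10.28 in its wild type. Slc7a11 and Slc7a7 both hold ATF4 core matches. Against its own wild type the Nr4a1 knockout had Atf4 lower, Slc7a11 higher and Slc7a7 lower. The circZbtb20 knockout had Atf4 and Slc7a7 higher against its own wild type, and Slc7a11 did not reach the rule. A part of ATF4 in these differences was not tested.

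The only p-values come from limma with both wild types treated as 1 group, which assumes that each single knockout array varies as the wild types do. In the circZbtb20 knockout it called 0 members and 0 of all genes at its adjusted p, with 18 members and 24.0% of all genes at an unadjusted p under 0.05, and the lowest adjusted p of a member was 0.0511, for Slc38a10. In the Nr4a1 knockout limma called 10 members at an adjusted p under 0.05, 7 higher and 3 lower, and 11.2% of all genes. The higher ones were Slc16a1, Slc16a5, Slc2a3, Slc38a2, Slc38a9, Slc43a1 and Slc7a11, and the lower ones Slc2a6, Slc3a2 and Slc7a1. Their limma adjusted p ran from 0.0175 for Slc16a5 to 0.0401 for Slc2a3. At an unadjusted p under 0.05 it called 17 members and 27.4% of all genes there.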

How the data were processed

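Expression was measured on 4 Affymetrix arrays, 1 per genotype, grouped by title. The authors deposited log2 values, from 2.13 to 19.93, and the submitters' processing notes name Affymetrix Power Tools and RMA. By its usual definition RMA subtracts background, equalises the arrays by quantiles and sums up the probes of a row. No version or setting is stated there. The ceiling is unexplained, so a 2-fold difference here need not be a 2-fold difference in RNA. The deposited arrays do not share 1 distribution. Their medians ran from 4.34 to 4.51, their 75th percentiles from 6.58 to 6.94 and their rows at the ceiling from 3 to 25, so equal quantiles were not assumed and quantile normalization was run as an alternative.

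Rows were named through GEO's platform table. Of 22205 rows 19571 had a symbol, giving 19504 genes, with the row of highest mean used where a gene had several. All 68 members were found in the RefSeq table. The rule for calling a gene, a 2-fold difference and a filter at the array median, stands in the results. There is no depth in array data. Python 3.11.15 and limma 3.58.1 were used. The calls and the limma fit were tried on simulated data in which all 4 arrays had the same spread. That simulation could not test limma's assumption that a knockout array varies as the wild types do. Named genes were a fixed set of well-known carriers, every other member past the rule, and the 4 genes of each context list with the greatest called differences. Slc3a1, Bsg, Ldha and Atf4 were named for their known roles after their values were seen. Members and lists were chosen with earlier results of these data known. Listed genes without a row here were not analysed here.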

Additional observations from a re-analysis of the deposited data

How the results depend on the processing

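The alternatives were no filter on low values, a filter at the 75th percentile, centring on array medians, quantile or cyclic loess normalization, the mean of the rows of a gene, a size of at least 2 on the log2 scale, the other wild type, the mean of both wild types, and limma. Centring moved the median of all genes by 0.17 in the Nr4a1 comparison. The count of members higher in the circZbtb20 knockout, 9, became 5 with cyclic loess and 2 at the stricter size. Between the wild types, the 2 higher and 6 lower became 1 and 0 at the stricter size. With limma's adjusted p the circZbtb20 knockout had 0 members higher and 0 lower, and the Nr4a1 knockout 7 higher and 3 lower. The other counts of members were within 1.5 times of those reported. The median difference of members past the filter, 0.12 in the circZbtb20 comparison, was -0.29 with the 75th percentile filter, -0.11 with quantile and -0.15 with cyclic loess normalization. In the Nr4a1 comparison it was 0.41, and became 0.015 with no filter, 0.12 with quantile normalization, -0.16 with cyclic loess and 0.12 against the other wild type. The cause of these shifts was not tested. Slc7a7 in the circZbtb20 comparison, at -0.35, and Slc7a6os in the Nr4a1 comparison, at -0.47, changed sign against the other wild type. Of the 18 members past the rule in the circZbtb20 comparison 15 kept their call against the other wild type, and of the 21 in the Nr4a1 comparison 17 did. Members past the rule only against the other wild type were Slc16a10, Slc16a5 and Slc7a6 in the circZbtb20 comparison, and Slc1a3, Slc2a1, Slc36a1, Slc36a4, Slc38a7, Slc7a10 and Slc7a15 in the Nr4a1 comparison. No paired analysis was possible because each genotype has 1 array and the labels carry no replicate numbers, and no array could be left out for the same reason. Called differences had their lower value below its array's median for 5 of the 18 members in the circZbtb20 comparison (Slc16a1, Slc16a7, Slc1a3, Slc2a13 and Slc2a3) and for 6 of the 21 in the Nr4a1 comparison (Slc16a5, Slc2a3, Slc2a9, Slc43a1, Slc7a11 and Slc7a8), and signal over background was not available to judge them.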

Other observations

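Some members neighbour each other in the RefSeq gene order, which was not part of their choice. Slc38a1 and Slc38a2 lie next to each other on chromosome 15 and differed in opposite directions in the Nr4a1 knockout, at -1.03 and 2.17. Slc43a1 and Slc43a3, with 1 gene between them on chromosome 2, were at 4.25 and -1.22 in the same comparison. Slc7a6 and Slc7a6os, next to each other on chromosome 8, were at 2.03 and 1.06 there, and at 0.66 and -0.57 in the circZbtb20 knockout. Among the 29 members past the rule in either comparison, the Nr4a1 knockout array held the highest value of 12 and the lowest of 10, and the circZbtb20 knockout array the highest of 7 and the lowest of 10. These 29 were chosen because a knockout differed from its wild type, which itself favours extremes on the knockout arrays. Nothing was read from these counts.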
